A study of Homo sapiens with 6 samples.

Results

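The genes of peroxisomal fatty acid oxidation were examined after knockdown of CPT1A in SKOV3, an ovarian cancer line of human origin. The set comprised 8 genes, ABCD3, CROT, ACOX3, AMACR, EHHADH, HSD17B4, ACAA1 and SCP2, taken by symbol from the 57905 genes of the deposited table, in which each symbol matched exactly 1 row. The question was whether transcripts of the peroxisomal route were higher when CPT1A, the mitochondrial entry step, was lowered. The groups were 3 libraries of SKOV3 with genotype CPT1Ash and 3 of SKOV3 with genotype WT, all in normal culture. The labels give no control hairpin for the WT cells. The column names of the knockdown libraries carry the tag sh2, whose meaning is not stated, so the effect of lowering CPT1A and that of carrying a hairpin cannot be told apart. The labels number the libraries as biological replicates without saying whether the knockdowns were made separately, and the p-values measure spread between these libraries.

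Long-chain fatty acids enter mitochondria as carnitine esters made by CPT1A. Peroxisomes take up very long-chain, branched-chain and dicarboxylic acyl-CoAs through ABC transporters and shorten them. An acyl-CoA oxidase makes the first step and releases hydrogen peroxide, a bifunctional enzyme hydrates and dehydrogenates the product, and a thiolase cleaves it. The shortened chains leave as carnitine esters, made by CROT and CRAT, and are finished in mitochondria. The organelle is most abundant in liver and kidney, where PPARA, a nuclear receptor for fatty acids, is the best known activator of these genes.

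Of the 8 genes, CROT rose in the CPT1A shRNA libraries, and the other 7 did not pass the test. The promoter of CROT is shown because CROT alone passed the test, and that of HSD17B4 because this gene was most abundant among the 8. Both were taken from RefSeq on GRCh38.p14 and run 5′ to 3′ on the plus strand, from 250 bases before to 50 bases after the gene's start in that table. The capitals mark GC boxes (GGGCGG) and CCAAT boxes (CCAAT), searched on both strands. CROT lies at chr7:87345414-87345713 and HSD17B4 at chr5:119452247-119452546.
CROT: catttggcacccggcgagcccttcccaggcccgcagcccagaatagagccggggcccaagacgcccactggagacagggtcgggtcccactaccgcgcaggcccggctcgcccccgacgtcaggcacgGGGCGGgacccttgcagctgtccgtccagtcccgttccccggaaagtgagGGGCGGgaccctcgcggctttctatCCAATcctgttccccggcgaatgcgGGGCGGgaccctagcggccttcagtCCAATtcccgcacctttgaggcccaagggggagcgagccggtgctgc
HSD17B4: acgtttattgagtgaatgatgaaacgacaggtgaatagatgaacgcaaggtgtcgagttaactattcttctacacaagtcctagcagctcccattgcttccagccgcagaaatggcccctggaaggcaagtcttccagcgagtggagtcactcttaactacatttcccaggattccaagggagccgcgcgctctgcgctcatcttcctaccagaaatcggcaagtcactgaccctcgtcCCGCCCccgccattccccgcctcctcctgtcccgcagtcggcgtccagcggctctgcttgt
The CROT promoter held 3 GC boxes and 2 CCAAT boxes, and its GC content was 70%, against a median of 58.7% over all 35116 promoters of the table. At least 3 GC boxes were found in 15.8% of all promoters. The HSD17B4 promoter held 1 GC box at a GC content of 55.3%. Other genes that did not pass the test matched or exceeded CROT in GC boxes. The ABCD3 promoter held 4 (GC content 75%), and 1 promoter each of ACOX3 and SCP2 held 3 (70.7% and 64.3%). The other promoters of ACOX3 and SCP2 held 1 and 0 (68.7% and 44%), and that of AMACR held 0 (65.7%). In CROT the boxes recur at a fixed distance of 50 bases, within a stretch that can be cut into 3 units, each beginning with a GC box in capitals.
Unit 1: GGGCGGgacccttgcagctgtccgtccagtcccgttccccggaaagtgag
Unit 2: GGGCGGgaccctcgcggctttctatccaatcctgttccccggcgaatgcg
Unit 3: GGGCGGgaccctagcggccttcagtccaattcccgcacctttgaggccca
Units 1 and 2 had 39 of 50 bases in common, and units 2 and 3 had 30 of 50. Promoters were found for 6 of the 8 genes, with 2 each for ACOX3 and SCP2, so 8 promoters in all. EHHADH and ACAA1 had no entry. A GC box was present in 6 of the 8 promoters, against 45% of all promoters, and a CCAAT box in 2 of 8, those of CROT and AMACR, against 34.6%. The hexamer AGGTCA, the core element of many nuclear receptors, was in 0 of the 8 promoters and in 13.8% of all, and its repeat with a 1-base spacer, AGGTCANAGGTCA, the element of PPARA and its partner RXR, was in 0 of 8 and in 0.0228% of all. At so low a share 0 of 8 was nearly certain beforehand and says nothing about these genes. Only these exact letters were searched, and only within these promoter bounds.

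The libraries held 15740143 to 22271565 counts, and 12784 genes with at least 1 FPKM (counts per kilobase of exon, scaled to the summed counts of the library) in at least 3 of the 6 libraries were tested with edgeR. All 8 genes passed this minimum. Of all tested genes, 27.4% were called at a Benjamini-Hochberg adjusted p under 0.05, 13.8% higher and 13.7% lower in CPT1A shRNA libraries. With total counts in place of trimmed-mean scaling, 61.6% of the called genes were higher, against 50.2%. The count of 3509 called genes fell to 2060 without CPT1A shRNA replicate 2 and to 1882 without control replicate 1, and control replicate 2 lay nearer to the CPT1A shRNA libraries than the other controls on the first principal component. CPT1A itself was at 2.16, 2.00 and 1.96 FPKM in CPT1A shRNA libraries, against 6.70, 8.06 and 8.0 FPKM in control libraries. Its fitted log2 change was -1.97 ± 0.09 (SE), with an edgeR adjusted p of 3.3e-06. ERBB2, amplified in SKOV3, was at 217.2 ± 45.8 FPKM in CPT1A shRNA libraries and 181.2 ± 25.01 FPKM in control libraries (SD, n = 3 each), whereas WT1 and MUC16 were below the minimum. Of 8 markers of an epithelial ovarian cancer line, 6 were tested, of which 0 rose and 3 fell, KRT7, KRT8 and PAX8 (edgeR adjusted p = 0.000145, 0.000421 and 0.0016), whereas KRT18, EPCAM and ERBB2 did not pass (edgeR adjusted p = 0.445, 0.0734 and 0.348). The called share of these markers was 50%, all lower, whereas 27.4% of all tested genes were called and 13.7% were called lower. The list sum was 879 to 970 FPKM in CPT1A shRNA libraries and 1089 to 1297 FPKM in control libraries. Of 5 fibroblast markers, 3 endothelial markers and 5 immune markers in the table, 0 passed the minimum. Their summed levels were 0.18 to 0.39, 0.34 to 0.59 and 0.63 to 0.89 FPKM in CPT1A shRNA libraries, and 0.98 to 1.35, 0.16 to 0.20 and 0.91 to 1.41 FPKM in control libraries, and CD3E was listed at 0 in every library. Of 4 hepatocyte markers only SERPINA1 was tested, and it fell 1.86-fold (edgeR adjusted p = 0.00219). The sum of the 4 was 2.97 to 4.29 FPKM in CPT1A shRNA libraries and 5.84 to 7.29 FPKM in control libraries. The part of these markers in the results was not tested.

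CROT, the carnitine octanoyltransferase that prepares shortened chains for export, was the only one of the 8 genes that was called. It was at 2.27, 3.32 and 3.06 FPKM in CPT1A shRNA libraries, against 1.56, 1.97 and 1.17 FPKM in control libraries. All 3 CPT1A shRNA libraries lay above all 3 control libraries, the nearest pair being CPT1A shRNA replicate 1 and control replicate 2. The raw counts were 212, 260 and 287 in CPT1A shRNA libraries and 142, 218 and 112 in control libraries. The fitted log2 change was 0.81 ± 0.26 (SE), or 1.75-fold, with an edgeR adjusted p of 0.0136, and the 95% limma interval ran from 1.27-fold to 2.42-fold. By size of increase CROT ranked 690 among the 12784 tested genes. The call was lost without CPT1A shRNA replicate 2 (edgeR adjusted p = 0.0636) and without control replicate 1 (edgeR adjusted p = 0.0589). Over 14 alternatives the adjusted p ranged from 0.00122 to 0.0636, and the log2 change was positive in all 14. CROT (ENSG00000005469) occupies positions 86974997 to 87029111 of chromosome 7, plus strand, in the coordinates of the deposited table. The ratio of CROT to CPT1A, both per length, was 1.05, 1.66 and 1.56 in CPT1A shRNA libraries and 0.233, 0.244 and 0.146 in control libraries. CPT1A is the target of the knockdown and fell 3.91-fold, so this ratio would be higher in CPT1A shRNA libraries even with CROT unchanged.

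**Figure D1:**
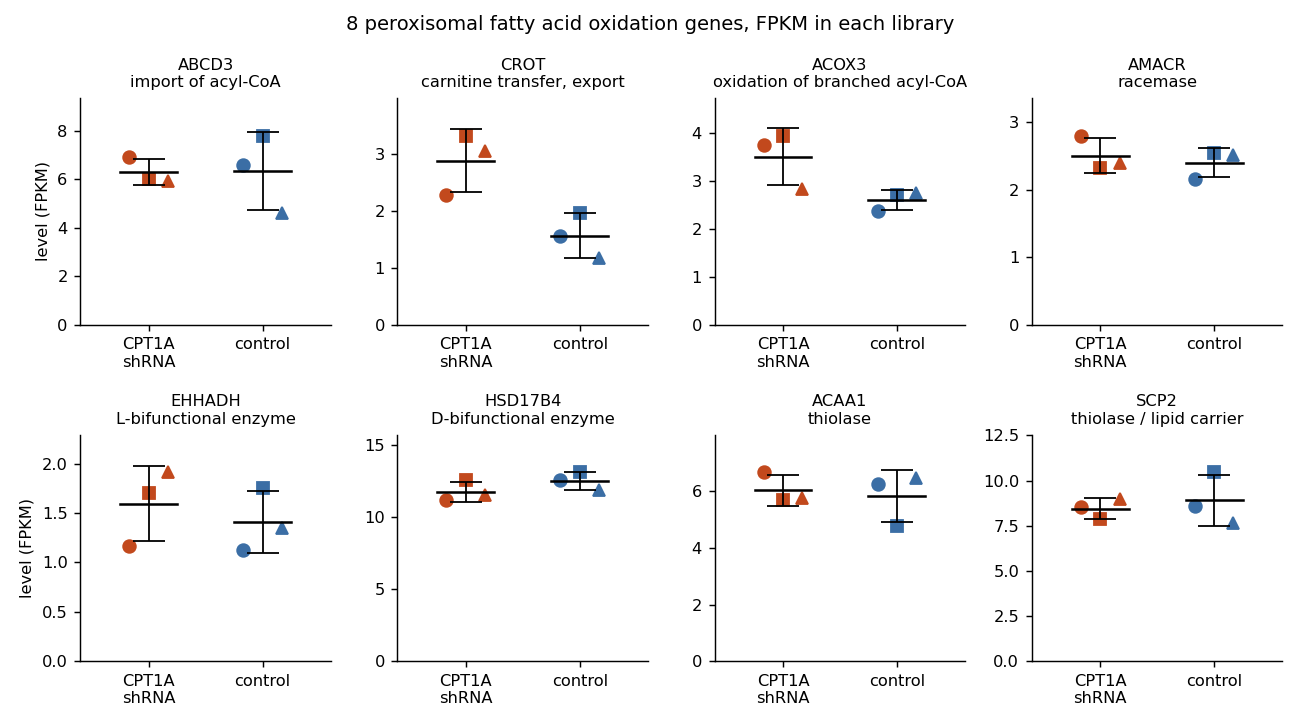
Level in FPKM (vertical axes, each from 0) of the 8 peroxisomal genes in each of 3 CPT1A shRNA libraries (orange) and 3 control libraries (blue); circles, squares and triangles are replicates 1, 2 and 3, which are not paired across groups, and bars are the mean ± SD. The groups do not overlap for CROT and ACOX3 and overlap for the other 6 genes.

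ABCD3, the most abundant ABC transporter protein of the peroxisomal membrane in liver, imports long-chain, branched-chain and dicarboxylic acyl-CoAs. Its transcript was at 6.90, 6.0 and 5.94 FPKM in CPT1A shRNA libraries, against 6.58, 7.79 and 4.61 FPKM in control libraries, so that the control libraries reached both further up and further down. The fitted log2 change was -0.08 ± 0.22 (SE), with an edgeR adjusted p of 0.762 and a 95% limma interval of 0.75-fold to 1.24-fold. ABCD3 (ENSG00000117528) spans 94883933 to 94984222 on the plus strand of chromosome 1 in the deposited coordinates.

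Among the acyl-CoA oxidases, ACOX3, which oxidises branched chains such as pristanoyl-CoA, was at 3.75, 3.95 and 2.83 FPKM in CPT1A shRNA libraries, against 2.37, 2.71 and 2.75 FPKM in control libraries. The groups did not overlap, but CPT1A shRNA replicate 3 lay only just above the highest control. The fitted log2 change of 0.35 ± 0.16 (SE) did not pass (edgeR adjusted p = 0.158), and its 95% limma interval was 0.97-fold to 1.65-fold. ACOX3 (ENSG00000087008), at 8368009 to 8442450 of chromosome 4 (minus strand), overlaps TRMT44 on the other strand, whose log2 change was 0.20 (edgeR adjusted p = 0.447). Without a stated read strand, the reads of these genes cannot be told apart where they overlap. Groups did not overlap in 2 of the 8 genes, CROT and ACOX3, and in 42.6% of all tested genes.

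ACOX2, a related acyl-CoA oxidase that was not among the 8 genes, had a larger fitted change than any of them. This oxidase of branched chains and of bile acid intermediates was at 4.36, 3.82 and 3.99 FPKM in CPT1A shRNA libraries, against 0.44, 0.45 and 0.66 FPKM in control libraries. Its counts were 316, 232 and 290 in CPT1A shRNA libraries and 31, 39 and 49 in control libraries, so that the lowest CPT1A shRNA library stood well above the highest control library. The fitted increase was 7.44-fold (log2 change 2.90 ± 0.20 SE, edgeR adjusted p = 3.87e-06), which ranked 9 among the increases of the 12784 tested genes. Every control library was below the minimum of 1 FPKM. ACOX2 therefore entered the test only through the CPT1A shRNA libraries, where it was high, which limits what its p-value and rank can show. ACOX2 was called in all 14 alternatives, with a log2 change of 1.74 to 3.13, the lowest on the compressed log2(FPKM + 1) scale. It occupies positions 58490863 to 58523046 of chromosome 3 (minus strand), where the single gene that overlaps it had 0 counts in every library.

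**Figure D2:**
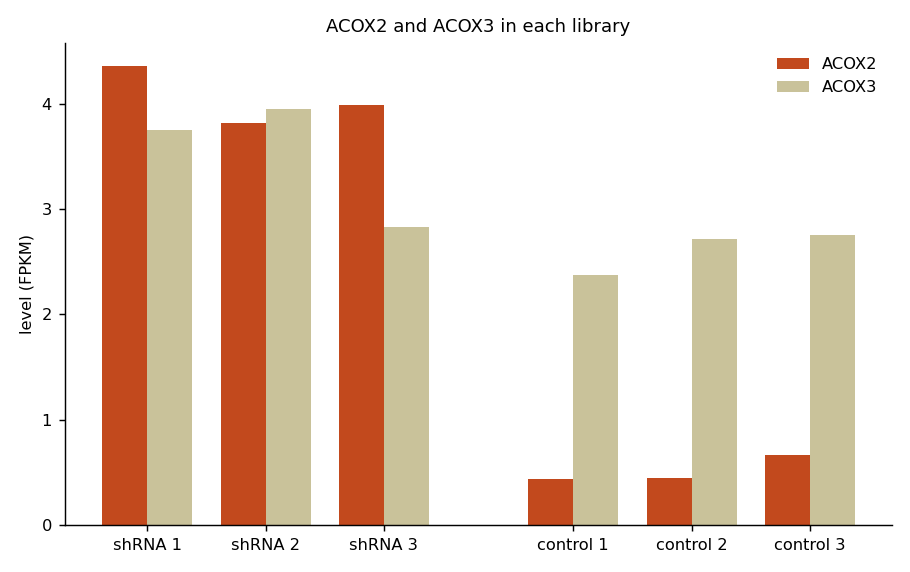
Bars give the level in FPKM (vertical axis, from 0) of ACOX2 (orange) and ACOX3 (tan) in each of the 3 CPT1A shRNA and 3 control libraries (horizontal axis). ACOX2 stands above 3 FPKM in every CPT1A shRNA library and below 1 FPKM in every control library.

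AMACR, the racemase that turns branched-chain acyl-CoAs into the form that ACOX2 and ACOX3 accept, was among the low transcripts and did not pass the test. It was at 2.80, 2.32 and 2.40 FPKM in CPT1A shRNA libraries, against 2.16, 2.54 and 2.51 FPKM in control libraries, and the groups overlapped. The log2 change was -0.01 ± 0.10 (SE, edgeR adjusted p = 0.977), with a 95% limma interval of 0.78-fold to 1.27-fold. AMACR (ENSG00000242110) spans 33986283 to 34008220 of chromosome 5 (minus strand).

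The bifunctional enzymes were the most and the least abundant of the 8 transcripts per length, and neither passed the test. HSD17B4, the D-bifunctional protein, which serves both straight and branched chains, was at 11.19, 12.56 and 11.56 FPKM in CPT1A shRNA libraries, against 12.60, 13.12 and 11.90 FPKM in control libraries. It was the most abundant of the 8 transcripts in both groups and had the smallest spread, with a coefficient of variation of 6.02% in CPT1A shRNA and 4.88% in control libraries. Its log2 change was -0.16 ± 0.06 (SE), with an edgeR adjusted p of 0.287 and a 95% limma interval of 0.76-fold to 1.05-fold. HSD17B4 (ENSG00000133835) spans 118788138 to 118972894 on the plus strand of chromosome 5. EHHADH, the L-bifunctional enzyme, which is strongly induced by PPARA ligands in rodent liver and is used for dicarboxylic acids, was the least abundant at 1.17, 1.70 and 1.91 FPKM in CPT1A shRNA libraries, against 1.13, 1.75 and 1.35 FPKM in control libraries. It had 97 to 183 counts per library, and its 95% limma interval was the widest of the 7 genes that did not pass, 0.76-fold to 1.51-fold (log2 change 0.10 ± 0.27 SE, edgeR adjusted p = 0.769). EHHADH (ENSG00000113790) spans 184908412 to 184999778 on the minus strand of chromosome 3.

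Neither of the thiolases passed the test. ACAA1, the peroxisomal 3-ketoacyl-CoA thiolase, was at 6.66, 5.68 and 5.75 FPKM in CPT1A shRNA libraries, against 6.25, 4.78 and 6.45 FPKM in control libraries. SCP2 was at 8.52, 7.86 and 8.98 FPKM in CPT1A shRNA libraries, against 8.60, 10.45 and 7.65 FPKM in control libraries. Groups overlapped for both genes. From separate promoters SCP2 makes a thiolase for branched chains and the shorter sterol carrier protein, which a single count per gene does not separate. The 95% limma intervals were 0.79-fold to 1.25-fold for ACAA1 (edgeR adjusted p = 0.918) and 0.75-fold to 1.11-fold for SCP2 (edgeR adjusted p = 0.443). ACAA1 (ENSG00000060971) spans 38144620 to 38178733 on the minus strand of chromosome 3, where DLEC1 on the other strand had 6 to 14 counts per library. SCP2 (ENSG00000116171) spans 53392901 to 53517375 on the plus strand of chromosome 1 and overlaps the antisense gene RP11-334A14.2, which had 38 to 71 counts per library against 1028 to 1932 for SCP2.

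Over the 8 genes, 1 was called higher, against 13.8% of all tested genes, and 0 were called lower, against 13.7%, so 12.5% of them were called against 27.4% of all. The count of 1 higher gene became 0 without CPT1A shRNA replicate 2 and without control replicate 1. At an unadjusted edgeR p under 0.05 the count lower was also 0, as it was with DESeq2 and both limma fits at the adjusted threshold. The median log2 change was -0.02, against -0.01 over all tested genes, and the median size of change was 0.12, against 0.29 over all tested genes. The summed level of the 8 genes was 43.0 ± 0.5 FPKM in CPT1A shRNA libraries and 41.6 ± 3.4 FPKM in control libraries (SD, n = 3 each), and the groups overlapped. CROT made up 6.70% ± 1.28 of that sum in CPT1A shRNA libraries and 3.73% ± 0.66 in control libraries (SD, n = 3 each).

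**Figure D3:**
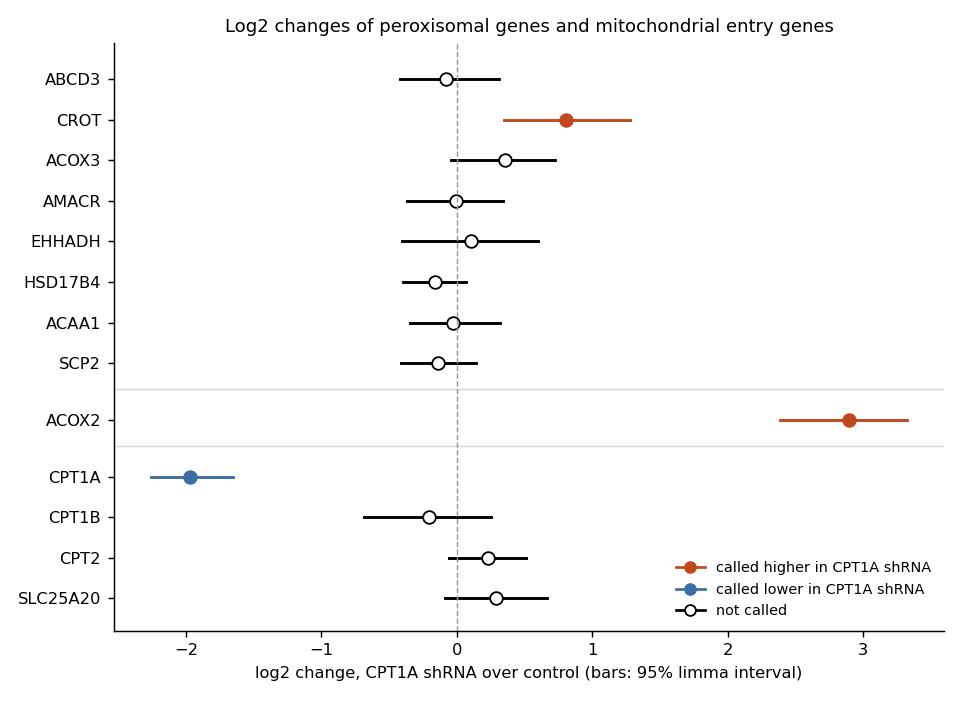
Fitted log2 change, CPT1A shRNA over control (horizontal axis), of the 8 peroxisomal genes, of the acyl-CoA oxidase ACOX2, and of the mitochondrial entry genes; bars are 95% limma intervals, and filled points passed edgeR's test at an adjusted p under 0.05. CROT at 0.81 is the only filled point among the 8, ACOX2 lies at 2.90 and CPT1A at -1.97.

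By level per length, the order in CPT1A shRNA libraries was HSD17B4, SCP2, ABCD3, ACAA1, ACOX3, CROT, AMACR and EHHADH. In control libraries CROT stood below AMACR, and the order was otherwise the same. Neighbours whose libraries overlapped in CPT1A shRNA cells were ABCD3 with ACAA1, ACOX3 with CROT, and CROT with AMACR. In control cells the overlapping neighbours were SCP2 with ABCD3, ABCD3 with ACAA1, ACOX3 with AMACR, and CROT with EHHADH. Within the control group, replicate 2 had the highest FPKM for 6 of the 8 genes and the lowest for ACAA1, so that the controls spread more than the CPT1A shRNA libraries for ABCD3 (coefficient of variation 8.56% in CPT1A shRNA and 25.4% in control libraries) and SCP2 (6.66% in CPT1A shRNA and 16% in control libraries). Among the tested genes most like CROT in log2 CPM over the 6 libraries were PAPD7 (Pearson r = 0.996) and MMD (r = 0.996). As many as 347 genes had an r above 0.95 with CROT, and all these points share the same 6 libraries and the difference between the groups.

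Of 25 other genes of peroxisomal beta-oxidation and its support, 22 were tested, 1 rose and 5 fell, with a median log2 change of -0.03. The called share was 27.3%, against 27.4% of all tested genes. By direction, 13.8% of all tested genes were called higher and 13.7% lower, whereas most called genes of this list were lower. The gene that rose was ACOX2. PRDX5, a peroxiredoxin that removes peroxides, was the most abundant that fell, at 194.1 ± 13.3 FPKM in CPT1A shRNA libraries and 339.3 ± 54.9 FPKM in control libraries (SD, n = 3 each; edgeR adjusted p = 0.000518). CAT, the catalase that breaks down hydrogen peroxide in peroxisomes, did not pass, at 30.4 ± 1.9 FPKM in CPT1A shRNA libraries and 27.5 ± 1.8 FPKM in control libraries (SD, n = 3 each; log2 change 0.08, edgeR adjusted p = 0.643). SLC27A4, an acyl-CoA synthetase and fatty acid transporter, fell to 27.1 ± 0.2 FPKM in CPT1A shRNA libraries, against 37.5 ± 4.8 FPKM in control libraries (SD, n = 3 each; edgeR adjusted p = 0.00643). DECR2, the peroxisomal reductase for unsaturated chains, fell 1.62-fold (edgeR adjusted p = 0.0107). It shares a strand and part of its span with NME4, whose log2 change was -0.57 (edgeR adjusted p = 0.0614). IDH1, which makes NADPH in cytosol and peroxisomes, fell 1.33-fold and the synthetase ACSL1 1.36-fold (edgeR adjusted p = 0.0118 and 0.0139). The DECR2 call was lost without CPT1A shRNA replicate 3 or control replicate 1 (highest edgeR adjusted p 0.0606 of a range from 0.00171), and that of IDH1 without CPT1A shRNA replicate 2 or control replicate 1 (range 0.00423 to 0.0923). ACSL1 lost its call without CPT1A shRNA replicate 1, CPT1A shRNA replicate 2 or control replicate 1 (range 0.00463 to 0.0560). CRAT, the other carnitine transferase of peroxisomes, had 21.2 ± 3.4 FPKM in CPT1A shRNA libraries and 20.5 ± 2.4 FPKM in control libraries (SD, n = 3 each), a log2 change of -0.03 with a 95% limma interval of 0.79-fold to 1.22-fold. It overlaps PPP2R4 on the other strand, which fell by 0.81 on the log2 scale (edgeR adjusted p = 0.00031).

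Of 8 genes of alpha-oxidation and ether lipid synthesis, 7 were tested. The called share was 14.3%, or 1 gene, against 27.4% of all tested genes. This was ALDH3A2, the fatty aldehyde dehydrogenase, which rose to 15.72, 14.99 and 13.63 FPKM in CPT1A shRNA libraries, against 8.42, 8.48 and 7.33 FPKM in control libraries (1.74-fold, edgeR adjusted p = 0.000439). The groups did not overlap, and ALDH3A2 was called in all 14 alternatives. Of the 16 peroxins, the proteins that build peroxisomes, 2 rose and 3 fell, so 31.25% were called, against 27.4% of all tested genes. PEX19, the chaperone of peroxisomal membrane proteins, rose 1.42-fold and PEX26, the membrane anchor of the import receptor's recycling machinery, 1.39-fold (edgeR adjusted p = 0.00694 and 0.00692). PEX19 overlaps DCAF8 on the same strand, whose log2 change was 0.19 (edgeR adjusted p = 0.254). PEX2, a ubiquitin ligase subunit of that machinery, fell 1.56-fold (edgeR adjusted p = 0.00315). PEX11G, of the family that elongates the organelle, was at 1.08 ± 0.19 FPKM in CPT1A shRNA libraries and 2.12 ± 0.40 FPKM in control libraries (SD, n = 3 each), a 2.05-fold decrease with an edgeR adjusted p of 0.0154. PEX3, the membrane docking factor of PEX19, fell 1.47-fold (edgeR adjusted p = 0.0320). PEX11G lost its call without CPT1A shRNA replicate 1, CPT1A shRNA replicate 2 or control replicate 1 (range 0.00671 to 0.0648). PEX3 kept its call in only 6 of 14 alternatives (range 0.0159 to 0.119) and lost it under total counts, with both limma fits, without any one CPT1A shRNA replicate and without control replicate 1 or 2.

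**Figure D4:**
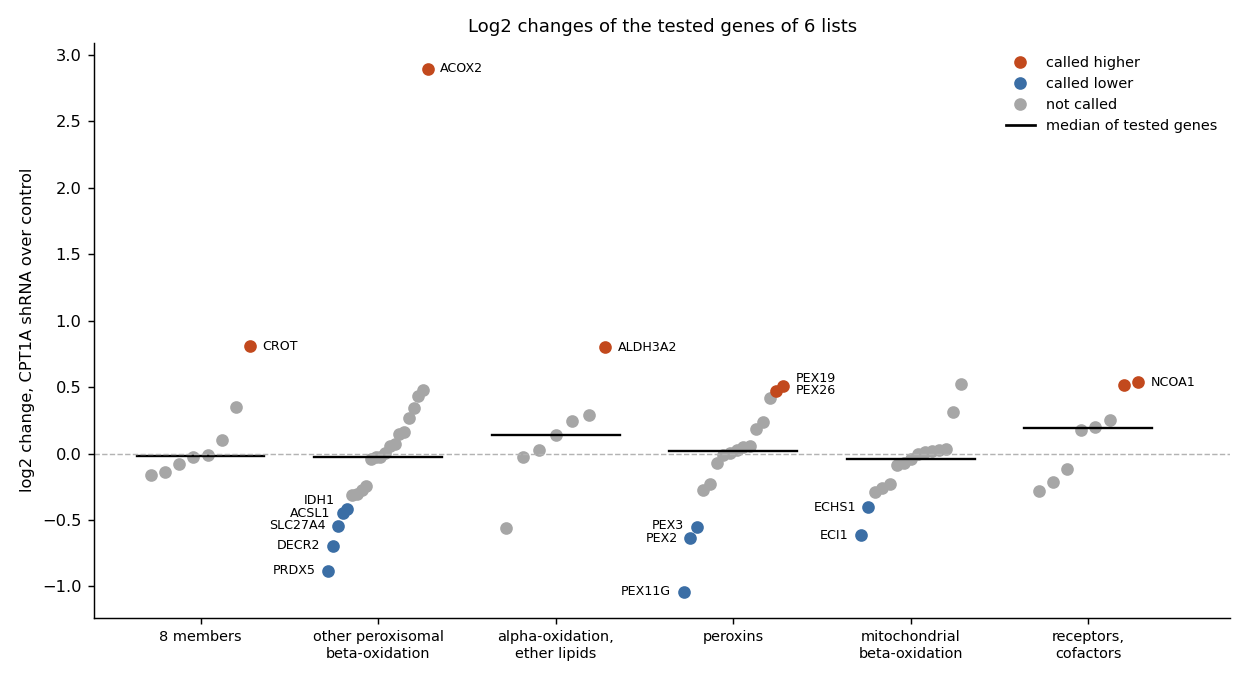
Fitted log2 change, CPT1A shRNA over control (vertical axis), of the tested genes in 6 lists (horizontal axis); each point is 1 gene, orange and blue points were called higher and lower by edgeR, and black lines are medians. The medians of the 6 lists lie between -0.04 and 0.19, and ACOX2 at 2.90 is the highest point.

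The mitochondrial steps gave the following values. CPT2, of the inner membrane, was at 9.57 ± 0.70 FPKM in CPT1A shRNA libraries and 7.78 ± 0.45 FPKM in control libraries, and the carnitine carrier SLC25A20 was at 5.52 ± 0.30 FPKM in CPT1A shRNA libraries and 4.30 ± 0.46 FPKM in control libraries (SD, n = 3 each). Neither passed, although the groups were separate in both (edgeR adjusted p = 0.223 and 0.239). CPT1B did not pass either (log2 change -0.21 ± 0.24 SE), and CPT1C was below the minimum. Of 16 mitochondrial beta-oxidation genes, 15 were tested, 0 rose and 2 fell, with a median log2 change of -0.04. The called share was 13.3%, against 27.4% of all tested genes. ECHS1, the short-chain enoyl-CoA hydratase, was at 105.2 ± 1.7 FPKM in CPT1A shRNA libraries and 132.2 ± 16.2 FPKM in control libraries (SD, n = 3 each; edgeR adjusted p = 0.0246), and the enoyl-CoA isomerase ECI1 fell 1.53-fold with overlapping groups (edgeR adjusted p = 0.0335). ECHS1 lost its call with limma on log2(FPKM + 0.1) (adjusted p = 0.0515), without any one CPT1A shRNA replicate and without control replicate 1 or 3 (range 0.000908 to 0.132), and ECI1 lost its call under total counts and both limma fits (adjusted p = 0.0679, 0.0768 and 0.082), without CPT1A shRNA replicate 2 or 3 and without control replicate 1 or 3 (range 0.000114 to 0.114). The trifunctional protein genes HADHA and HADHB, mitochondrial counterparts of the bifunctional enzymes and thiolase, had log2 changes of 0.02 and -0.003, with 95% limma intervals of 0.87-fold to 1.18-fold and 0.85-fold to 1.18-fold. HADH was at 16.8 ± 0.6 FPKM in CPT1A shRNA libraries and 12.8 ± 0.3 FPKM in control libraries (SD, n = 3 each), with separate groups and an edgeR adjusted p of 0.0714 (range over 14 alternatives 0.0186 to 0.234). ACAA2 was below the minimum. No test of the peroxisomal genes against the mitochondrial ones was made.

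Of 10 receptors and cofactors of these genes, 8 were tested, 2 rose and 0 fell, so 25% were called, against 27.4% of all tested genes. PPARA had 1.16 ± 0.19 FPKM in CPT1A shRNA libraries and 1.29 ± 0.32 FPKM in control libraries (SD, n = 3 each), PPARG 11.6 ± 0.4 FPKM in CPT1A shRNA libraries and 9.73 ± 0.40 FPKM in control libraries (SD, n = 3 each), and neither passed (edgeR adjusted p = 0.434 and 0.312). The coactivator NCOA1 rose 1.45-fold (edgeR adjusted p = 0.0201), a call lost without CPT1A shRNA replicate 2 or control replicate 1 (range 0.00374 to 0.111). PPARGC1B, a coactivator of oxidative metabolism, was at 1.00, 1.04 and 0.90 FPKM in CPT1A shRNA libraries, against 0.32, 0.46 and 0.25 FPKM in control libraries, and missed the minimum for testing by 1 library. Its relative PPARGC1A, also below the minimum, was at 0.02, 0.02 and 0.04 FPKM in CPT1A shRNA libraries, against 0.14, 0.14 and 0.04 FPKM in control libraries. PPARD leaned lower with separate groups and did not pass (log2 change -0.28, edgeR adjusted p = 0.140). Of the 8 tested genes of this list, 5 had a positive log2 change, against 6245 of all 12784 tested genes. At the microsomal omega-oxidation step, which makes dicarboxylic acids for peroxisomes, CYP4F11 rose to 4.82, 4.64 and 3.72 FPKM in CPT1A shRNA libraries, against 1.33, 1.46 and 1.63 FPKM in control libraries (2.83-fold, edgeR adjusted p = 0.000117). The groups did not overlap, and the call held in all 14 alternatives. CYP4F11 has close relatives in a cluster on chromosome 19 among which reads can be divided, and CYP4F3 was at 0.30 to 0.53 FPKM in CPT1A shRNA libraries and 0.07 to 0.10 FPKM in control libraries. Of the 8 genes listed for omega-oxidation and peroxide handling, 5 were tested, 1 rose and 3 fell, with a median log2 change of -0.56. The called share was 80%, against 27.4% of all tested genes. The peroxide-removing enzymes PRDX1 and GPX4 fell 1.47-fold and 1.55-fold (edgeR adjusted p = 0.00236 and 0.00284), and the aldehyde dehydrogenase ALDH3A1 fell 2.21-fold with overlapping groups (edgeR adjusted p = 0.0295). GPX1, a glutathione peroxidase, did not pass, at 144.9 ± 16.4 FPKM in CPT1A shRNA libraries and 161.2 ± 28.2 FPKM in control libraries (SD, n = 3 each; log2 change -0.23, edgeR adjusted p = 0.255). ALDH3A1 kept its call in 7 of 14 alternatives (range 8.5e-05 to 0.103) and lost it under total counts, with both limma fits, without CPT1A shRNA replicate 2 or 3 and without control replicate 1 or 3. Its log2 change of -1.14 became -1.83 without CPT1A shRNA replicate 1. ALDH3A1 was at 1.37, 0.49 and 0.49 FPKM in CPT1A shRNA libraries, against 1.72, 1.28 and 1.97 FPKM in control libraries. It therefore met the minimum of 1 FPKM through the control libraries, where it was high, which limits what its p-value can show.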

How the data were processed

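RNA sequencing measured 6 libraries, 3 per group. Gene counts are the authors' deposited whole-number reads per gene, with no normalization; the submitters' processing notes list HISAT2 2.0.1, HTSeq 0.6.1, cutadapt 1.9.1 and DESeq2 with no roles. The deposited FPKM values follow from those counts, the exonic length and the summed counts of a library, a formula that gave 100% of the values within 0.0051. The notes name only a mouse build, whereas the identifiers are human, so the human build behind the table is unknown here, and positions of genes are those of the authors' table. Poly(A) selection and rRNA removal both appear in the labels.

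Counts were tested with edgeR 4.0.16 in R 4.3.3: genes reaching 1 FPKM in 3 or more of 6 libraries, trimmed-mean (TMM) scaling, a quasi-likelihood F test without a replicate block, and Benjamini-Hochberg adjustment over the 12784 genes tested. The SE is that of the difference between groups in log2 CPM (prior count 2), and 95% intervals are from limma 3.58.1 with a trend on the same values. DESeq2 1.42.0 was an alternative. FPKM values carry no TMM factor, so for changes near 0 their means and the fitted change can differ in sign. The procedure was tested on simulated data. Libraries of a group differed by more than counting error (chi-square per degree of freedom 6.68 to 38.1). An exact permutation test of 3 against 3 cannot go below 0.1 and was not used. Values with several libraries carry no counting interval, and PCR copies are not independent molecules.

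The 8 genes, all lists and the naming rule were chosen with earlier results of these data known. The rule named the 8 genes, the carnitine palmitoyltransferases and SLC25A20, mitochondrial or peroxisomal counterparts, genes overlapping a member, the 3 genes most correlated with CROT, and in each list up to 6 called genes with the smallest p. PPARA, PPARD, PPARG, PPARGC1A, PPARGC1B, CYP4F3, CAT, GPX1 and the marker genes were named after their values were seen. Some genes that the rule names are not reported here. Promoters are from RefSeq (GRCh38.p14).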

Additional observations from a re-analysis of the deposited data

How the results depend on the processing

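Of 532 comparisons of 38 genes with the alternatives, 446 kept direction and side of the threshold, 42 lost a call, 9 gained one and 35 changed sign; 0 of the sign changes concerned a gene that was called. The count of all called genes ran from 1882 to 5050 when 1 library was left out, and the count of members called higher from 0 to 1 (a setting with fewer samples). The other alternatives gave 3262 to 4141 called genes and 1 member called higher. With limma on log2(FPKM + 1) the log2 change was 0.013 for ABCD3, 0.049 for ACAA1, 0.043 for AMACR, 0.041 for CRAT and 0.067 for HADHB. On log2(FPKM + 0.1) it was 0.018 for ABCD3, 0.057 for ACAA1, 0.057 for AMACR, 0.042 for CRAT and 0.070 for HADHB. Under total-count scaling it was 0.050 for ACAA1, 0.063 for AMACR, 0.048 for CRAT and 0.070 for HADHB. For HADHB it was 0.0003 with median-ratio factors and 0.0004 with DESeq2. These 3 scalings without TMM factors moved the median of all genes to 0.05, 0.06 and 0.06, against -0.01, and the higher share among called genes to 60.5%, 60.7% and 61.6%, against 50.2%. Leaving out 1 library gave -0.242 to 0.0782 for ABCD3, -0.169 to 0.0792 for ACAA1, -0.0919 to 0.0470 for AMACR, -0.0543 to 0.290 for EHHADH, -0.159 to 0.0885 for CRAT, -0.0335 to 0.0764 for HADHA and -0.0645 to 0.0547 for HADHB. On log2(FPKM + 1), which compresses low genes, the change was 1.74 for ACOX2, -0.58 for PEX11G and -0.60 for ALDH3A1.

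The labels give both groups replicates 1 to 3. Deviations of same-numbered libraries from their group means correlated at -0.07, 0.01 and -0.25, so the numbers were not taken as pairs, and no library correlated best with its own number. With a replicate block 3262 genes were called, CROT had a log2 change of 0.82 and an edgeR adjusted p of 0.00437, and 1 member was called higher and 0 lower. EHHADH and CROT had 97 to 287 counts per library and the largest SE of the log2 change among the members, 0.27 and 0.26, whereas AMACR, at 177 to 274 counts, had an SE of 0.10; the part of depth in this was not tested.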

Other observations

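Of 128 genes whose cellular component annotation in the deposited table names the peroxisome, a list chosen after the data were seen, 102 were tested. In the CPT1A shRNA libraries 12 of these were higher and 21 lower by edgeR at an adjusted p under 0.05, and 69 did not pass, with a median log2 change of -0.03 against -0.01 over all tested genes. The called share was 32.4%, against 27.4% of all tested genes, where 13.8% were called higher and 13.7% lower. ACOX2 had the largest increase in that list at a log2 change of 2.90. It entered the test only through the CPT1A shRNA libraries, where it was high, which limits what this place in the list can show.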
